A study of Mus musculus with 10 samples.

Results

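The T cell receptor complex and its coreceptors were described through 9 genes measured in whole mouse tumors: *Cd3d*, *Cd3e*, *Cd3g* and *Cd247*, which encode the signaling chains of the complex, *Cd4*, *Cd8a* and *Cd8b1*, which encode the coreceptors, and *Lck* and *Zap70*, which encode the first kinases of the pathway. The genes were chosen by name, for their known place in the receptor and with earlier results of these data known. All 9 were found among the 770 gene probes of a NanoString mouse immune panel. All 9 also had a mean of at least 20 normalized counts over the 10 tumors. The panel counts single RNA molecules by means of color-coded probes, without amplification.

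Tumors were grown from YUMMER1.7 cells, a mouse melanoma line with mutant *Braf* and deleted *Cdkn2a*, among other changes, that was selected to be more immunogenic than its parent line. The cells were injected under the skin of male mice that were either wild type (WT) or lacked *Siah2*, a ubiquitin ligase gene (Siah2 KO, -/-), and tumors were collected at day 11 according to the sample labels. The hosts were young C57BL/6 mice. There were 5 WT tumors, carrying replicate numbers 2 to 6, and 5 Siah2 KO tumors, carrying numbers 1, 2, 3, 5 and 6. Tumors of both groups shared the injected line, which kept its own *Siah2*, so the deletion was in the host cells alone, and in all of them rather than in T cells only. The panel held 0 probes for *Siah2*, and the genotypes could not be checked from the data. The series' design text names another melanoma line and another mutant mouse, and the labels of the individual samples were used for both. The day of collection is not settled, since the design text and a legend of the study both give day 10 for these tumors. The labels do not say that each tumor came from a mouse of its own, so p-values measure the spread between these tumors.

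A T cell recognizes a peptide through the variable chains of its receptor, which have no signaling parts of their own and are carried to the surface by the CD3 gamma, delta and epsilon chains and by the zeta chain, the product of *Cd247*. The coreceptors bind the presenting molecule at the same time, CD4 binding MHC class II and CD8 (an alpha and beta pair on most conventional T cells) binding MHC class I, and both bring the kinase LCK to the complex. LCK phosphorylates the tails of the CD3 and zeta chains, ZAP-70 binds them there, and the signal passes on to adaptors and transcription factors. Several of these genes are used by other cells too: *Cd247*, *Lck* and *Zap70* by natural killer (NK) cells, *Cd8a* without *Cd8b1* by some dendritic cells, and *Cd4* by some myeloid cells.

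The genes of the CD3 gamma, delta and epsilon chains lie next to each other on mouse chromosome 9, with 0 other protein-coding genes between them, and *Cd8b1* and *Cd8a* are likewise neighbors on chromosome 6. The starts of *Cd3d* and *Cd3g* lie 1355 bases apart and point away from each other, and the start of *Cd3e* lies 27825 bases from that of *Cd3d*. The 150 bases before each start are printed to describe this cluster. Its mRNAs varied together between tumors, as described further on, but so did those of receptor genes on other chromosomes. The sequences are from RefSeq on the mouse build GRCm38.p6, are written 5′ to 3′ on the strand of the gene, and have in capitals the matches to a GATA motif (AGATAA), a TCF/LEF motif (CTTTGA) and an ETS motif (AGGAAG) on either strand. A RUNX motif (TGTGGT) was searched too and has no match in these windows. 
Cd3d, chr9:44981636-44981785, plus strand: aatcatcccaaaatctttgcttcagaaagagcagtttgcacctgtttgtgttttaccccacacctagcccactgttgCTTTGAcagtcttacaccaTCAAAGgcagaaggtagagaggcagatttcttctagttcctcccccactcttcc
Cd3g, chr9:44980432-44980581, minus strand: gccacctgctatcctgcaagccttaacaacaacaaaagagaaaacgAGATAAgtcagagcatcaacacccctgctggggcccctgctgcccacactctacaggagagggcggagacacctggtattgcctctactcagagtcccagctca
Cd3e, chr9:45009612-45009761, minus strand: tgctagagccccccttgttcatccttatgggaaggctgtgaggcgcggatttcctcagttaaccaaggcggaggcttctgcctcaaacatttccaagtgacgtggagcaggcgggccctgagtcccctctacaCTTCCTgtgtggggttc

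Such short motifs are common: among 32851 RefSeq windows of the same length, 5.65% held the GATA motif, 7.93% the TCF/LEF motif, 19.7% the ETS motif and 8.40% the RUNX motif. The 7 genes other than *Cd4* and *Cd8b1* had 10 windows in all, of which 6 held the ETS motif, 2 the TCF/LEF motif, 2 the RUNX motif and 1 the GATA motif. A match describes the letters and is not a binding site that was measured.

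The mean of each receptor gene was higher in Siah2 KO tumors, with the exception of *Cd4*, and neither *Cd4* nor *Cd247* passed the test. Of the 9 genes, 7 passed the test in the direction of higher expression and 0 in the direction of lower expression. Over all 770 probes 31.3% passed as higher and 9.74% as lower, so a shift towards higher values was not particular to these genes. Their median log2 fold change (Siah2 KO minus WT, on log2 of the normalized count plus 1) was 0.71, against 0.24 over all probes. The deposited values were scaled to the reference genes of the panel. When tumors were scaled instead so that the median probe was equal, the median of all probes shifted by -0.25, and the receptor genes then had 5 calls as higher and 1, *Cd4*, as lower. When they were scaled to the spiked-in positive controls alone, the shift was -0.16 and only *Cd8b1* passed. The share of all probes that passed was not counted under these other scalings, here or further on. In whole tumors, fewer cells of a type and less RNA per cell cannot be told apart.

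**Figure D1:**
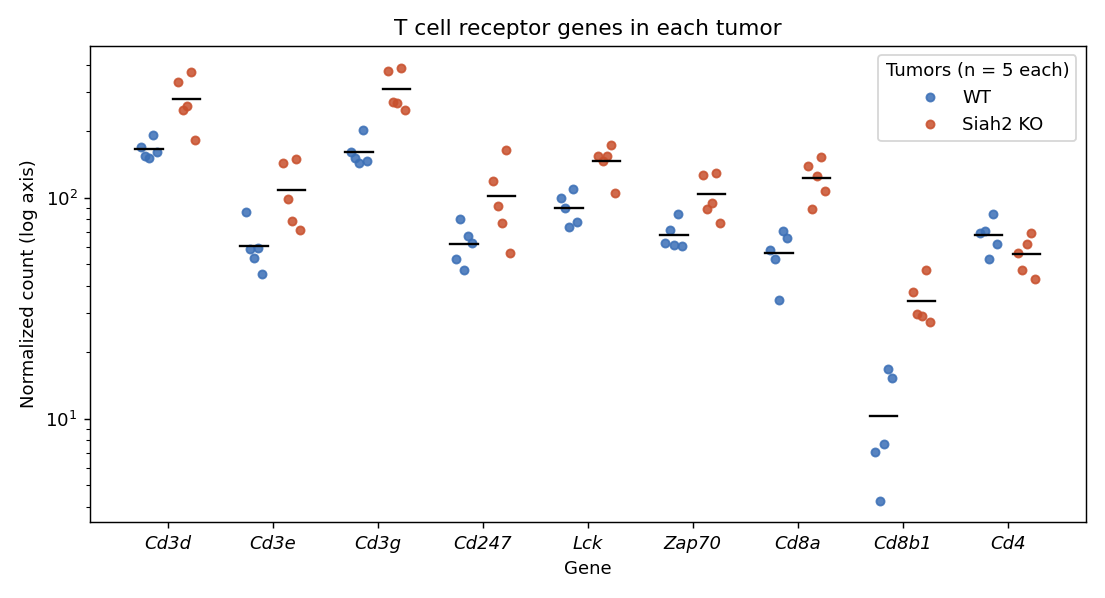
Normalized count of each gene in each tumor on a log axis, with WT tumors in blue, Siah2 KO tumors in orange and a black line at the mean of each group of 5. The groups do not overlap for *Cd3g*, *Cd8a* and *Cd8b1*, and *Cd4* is the 1 gene whose mean lies lower in the Siah2 KO tumors.

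*Cd3g*, the gamma chain, had 161, 151, 143, 202 and 146 normalized counts in WT replicates 2 to 6. In Siah2 KO replicates 1, 2, 3, 5 and 6 it had 375, 271, 268, 388 and 249. Every Siah2 KO tumor lay above every WT tumor, and the group means were 310.2 ± 65.8 and 161 ± 23.8 (SD, n = 5 each). *Cd3g* rose by a log2 fold change of 0.93 ± 0.16 (SE; limma, Benjamini-Hochberg adjusted p = 0.0014). Such a complete separation, with every Siah2 KO tumor above every WT tumor, was seen for 3 of the 9 genes and for 24.5% of all probes.

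*Cd3d*, the delta chain, had 169, 155, 151, 192 and 161 normalized counts in the WT tumors. It had 333, 249, 260.1, 372 and 183 in the Siah2 KO tumors. Replicate 6 was the 1 Siah2 KO tumor that fell within the WT range. The rise was 0.71 ± 0.18 on the log2 scale (SE; limma, adjusted p = 0.0099).

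*Cd3e*, the epsilon chain, had 86.6, 58.8, 53.6, 59.1 and 45.2 normalized counts in WT tumors and 143, 98.5, 78.3, 150.3 and 71.7 in Siah2 KO tumors. WT replicate 2 lay above the lower pair of Siah2 KO tumors, replicates 3 and 6. The log2 fold change was 0.80 ± 0.24 (SE; limma, adjusted p = 0.025), and this call was lost when any 1 of 5 tumors was left out (WT replicates 3, 4 and 6, Siah2 KO replicates 1 and 5). Over all 10 such fits its log2 fold change ran from 0.66 to 0.93 and its adjusted p from 0.012 to 0.059.

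*Cd247*, the zeta chain, was the signaling chain that did not pass. Its WT tumors had 53.0, 80.2, 47.1, 67.0 and 62.6 normalized counts. Its Siah2 KO tumors had 118, 92.1, 77.0, 165 and 56.2, so that the groups overlapped in replicates 3 and 6 of the Siah2 KO tumors. The log2 difference was 0.63 ± 0.27 (SE; 95% interval 0.03 to 1.24; limma, adjusted p = 0.085). Without Siah2 KO replicate 6 it was 0.82 with an adjusted p of 0.019.

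The kinase genes followed the CD3 genes in size. *Lck* had 100.0, 90.0, 73.8, 109 and 78.0 normalized counts in WT tumors, and 155, 147, 154, 172 and 105 in Siah2 KO tumors. Siah2 KO replicate 6 was the 1 tumor of its group below the highest WT value, and *Lck* rose by 0.69 ± 0.16 on the log2 scale (SE; limma, adjusted p = 0.0058). *Zap70* had 62.6, 71.5, 60.9, 84.2 and 60.6 in WT tumors, and 127, 88.9, 94.7, 129.6 and 76.8 in Siah2 KO tumors. Replicate 6 again was the exception, and the rise was 0.58 ± 0.17 (SE; limma, adjusted p = 0.019). The call of *Zap70* was lost when the median probe was made equal (0.32, adjusted p = 0.10), and that of *Lck* was kept there but lost after quantile normalization (0.38, adjusted p = 0.054).

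The CD8 genes had the largest log2 fold changes of the 9. *Cd8a*, the alpha chain, had 57.8, 53.0, 34.3, 71.0 and 65.5 normalized counts in WT tumors, and 139.6, 88.9, 125, 153 and 108 in Siah2 KO tumors. The groups did not overlap, with means of 56.3 ± 14.1 and 123 ± 25.4 (SD, n = 5 each). *Cd8a* rose by 1.13 ± 0.21 on the log2 scale (SE; limma, adjusted p = 0.0023) and ranked 61 among the 770 probes by log2 fold change. With scaling to the positive controls alone its value was 0.97 with an adjusted p of 0.064.

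*Cd8b1*, the beta chain, had 7.06, 4.26, 7.69, 16.9 and 15.3 normalized counts in WT tumors. It had 37.5, 29.7, 29.0, 46.9 and 27.4 in Siah2 KO tumors, again without overlap. The rise was 1.76 ± 0.33 on the log2 scale (SE; limma, adjusted p = 0.0022), rank 22 of all probes. The WT values were close to the background of the assay. Before the scaling factor of each tumor, *Cd8b1* stood at 4.37 to 15.9 in the WT tumors, where the highest negative control probe stood at 2.37 to 6.76. In the Siah2 KO tumors it stood at 18.6 to 33.8 against 2.57 to 10.7. It lay above the highest negative control of its own tumor in 5 of 5 tumors of each group. The size of its fold change therefore depended on how low values were handled: it was 0.71 when all values under 20 were raised to 20, and it passed under each of the 21 alternatives tried.

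*Cd4* ran against the other genes. It had 69.3, 70.5, 52.6, 84.2 and 61.6 normalized counts in WT tumors, and 56.4, 47.3, 61.9, 69.0 and 42.8 in Siah2 KO tumors. The ranges overlapped, with means of 67.6 ± 11.7 and 55.5 ± 10.6 (SD, n = 5 each). The log2 difference of -0.29 ± 0.16 (SE; 95% interval -0.64 to 0.07) did not pass the test (limma, adjusted p = 0.19). It passed as lower where the median probe was made equal (-0.55, adjusted p = 0.0054) and after quantile normalization (-0.59, adjusted p = 0.0052).

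**Figure D2:**
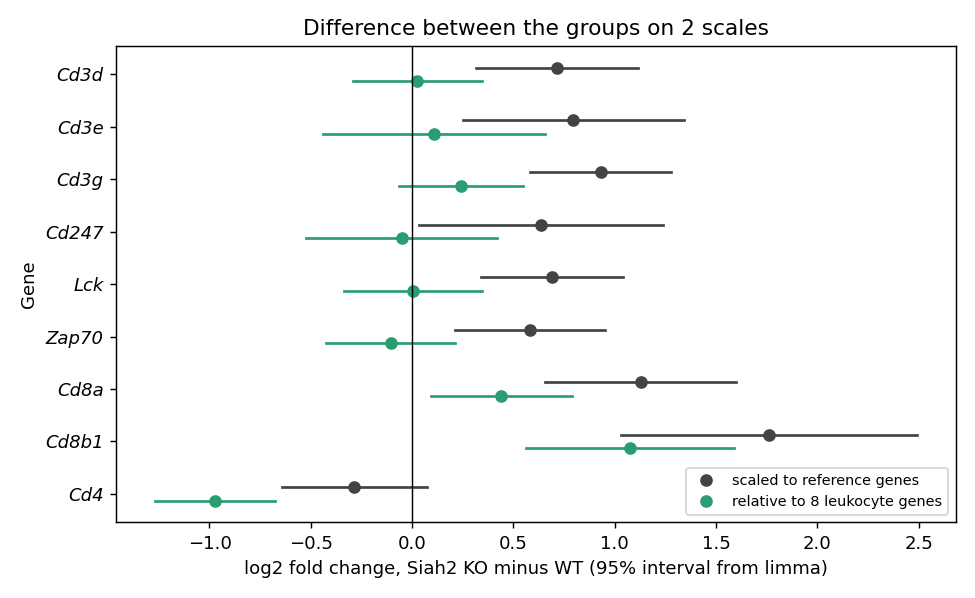
Log2 fold change of each gene (Siah2 KO minus WT) with its 95% interval from limma, on the deposited scale in grey and relative to 8 leukocyte genes of the same tumor in green, over 5 tumors of each group. On the second scale the CD3 chains and kinases lie near 0, *Cd8a* and *Cd8b1* above it and *Cd4* at -0.97.

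The ratio of *Cd8a* to *Cd4* was taken in each tumor, since any factor that scales a whole tumor cancels in it. It was 0.834, 0.751, 0.651, 0.843 and 1.06 in WT replicates 2 to 6. It was 2.48, 1.88, 2.02, 2.22 and 2.52 in the Siah2 KO tumors. The lowest Siah2 KO tumor was above the highest WT tumor, and the means were 2.22 ± 0.278 and 0.829 ± 0.152 (SD, n = 5 each). The groups differed by 1.43 on the log2 scale, or 2.70-fold (2-sided exact permutation test, p = 0.0079, the smallest that 10 tumors in groups of 5 can give, and 0.024 after adjustment over the 9 ratios compared). The ratio compares tumors with each other, and its level in a single tumor also depends on how well each probe binds.

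**Figure D3:**
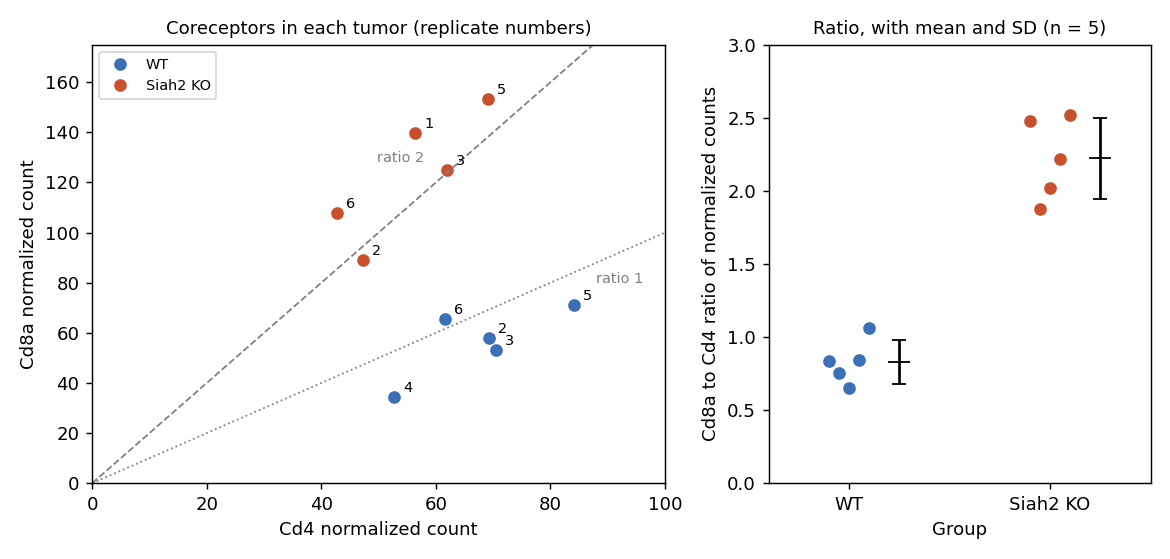
Left, normalized counts of *Cd4* (horizontal) and *Cd8a* (vertical) in each tumor, numbered by replicate, with grey lines at ratios of 1 and 2. Right, the ratio of *Cd8a* to *Cd4* in each tumor with the mean and SD of each group of 5. The WT tumors lie between 0.651 and 1.06 and the Siah2 KO tumors between 1.88 and 2.52.

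The same held with the beta chain in place of the alpha chain. The *Cd8b1* to *Cd4* ratio was 0.151 ± 0.0752 in WT tumors and 0.616 ± 0.0846 in Siah2 KO tumors (SD, n = 5 each), a log2 difference of 2.18 (exact permutation p = 0.0079, adjusted 0.024). The 2 CD8 chains were also set against each other. The *Cd8a* to *Cd8b1* ratio was 6.71 ± 3.61 in WT tumors and 3.65 ± 0.524 in Siah2 KO tumors, a log2 difference of -0.75 (exact permutation p = 0.024, adjusted 0.043). That difference rests on the low *Cd8b1* values of the WT tumors, and it was -0.14 when 10 was added to each value before the ratio was taken. The call was lost in 6 of the 10 cases with 1 tumor left out, namely any of the Siah2 KO tumors (-0.68 to -0.81) or WT replicate 3 (-0.49), so an unequal change of the chains was not firmly shown.

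Each remaining gene was also set against the geometric mean of *Cd3d*, *Cd3e* and *Cd3g* of its own tumor. *Cd4* per CD3 was 0.579 ± 0.0641 in WT tumors and 0.271 ± 0.0519 in Siah2 KO tumors (SD, n = 5 each), with all 5 Siah2 KO tumors below every WT tumor. This was a log2 difference of -1.11 (exact permutation p = 0.0079, adjusted 0.024). *Cd8b1* per CD3 was higher by 1.07 (exact permutation p = 0.016, adjusted 0.036), and this was lost when 10 was added to each value (0.38) or when any 1 of the Siah2 KO tumors was left out. *Cd8a* per CD3 differed by 0.32 (exact permutation p = 0.16, adjusted 0.20), which did not pass. *Cd247* (-0.18, adjusted p = 0.37), *Lck* (-0.12, adjusted p = 0.37) and *Zap70* (-0.23, adjusted p = 0.071) per CD3 did not pass either in the exact permutation tests. Thus the *Cd4* transcript per unit of CD3 transcript differed between the groups. For the zeta chain and both kinases no such difference was detected with all tumors. *Zap70* per CD3 passed in 1 of 10 cases with 1 tumor left out, without WT replicate 2 (-0.31, exact permutation, adjusted p = 0.018). The CD3 genes themselves rose, so a gene that did not rise is lower per CD3. Without the ratio, *Cd4* did not pass (-0.29, limma, adjusted p = 0.19). The share of all probes lower per CD3 was not counted, so whether the lower ratio was particular to *Cd4* was not tested.

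General leukocyte genes were also higher in Siah2 KO tumors. Of 8 general leukocyte genes (*Ptprc*, *Cd53*, *Cd48*, *Cd37*, *Itgb2*, *Lcp1*, *Selplg* and *Itgal*) 7 rose, beside 31.3% of all probes. The summed normalized counts of the 8 ran from 4906 to 6105 in WT tumors and from 7409 to 11105 in Siah2 KO tumors. The receptor genes were therefore fitted again with the median log2 value of those 8 genes taken away in each tumor. On that scale 2 of the 9 genes passed as higher, against 7.27% of all probes, and 1 passed as lower, against 44.2% of all probes. The median log2 fold change was 0.03 for the receptor genes and -0.45 for all probes.

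Relative to the leukocyte genes, *Cd8b1* was higher by 1.07 (limma, adjusted p = 0.0036) and *Cd8a* by 0.44 (adjusted p = 0.037). The call for *Cd8a* was lost in 8 of 12 alternatives: without Siah2 KO replicate 1, 3, 5 or 6, without WT replicate 3 or 4, with *Ptprc* alone as reference (0.35, adjusted p = 0.084) and with the replicate number as a block (0.27, adjusted p = 0.17). Its value ran from 0.32 to 0.50 with 1 tumor left out. *Cd4* was lower by a log2 difference of -0.97 (95% interval -1.27 to -0.67; limma, adjusted p = 0.00036) and held in 12 of 12. The CD3 chains and kinases stayed near the leukocyte genes, at 0.03 for *Cd3d* (adjusted p = 0.89), 0.11 for *Cd3e* (0.75), 0.24 for *Cd3g* (0.17), -0.05 for *Cd247* (0.85) and -0.11 for *Zap70* (0.57). *Lck* stood at 0.0029 with an adjusted p of 0.99. None of these 6 passed the limma test on that scale.

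Within each group, the genes varied together from tumor to tumor. Siah2 KO replicate 5 had the highest value of its group for all 9 genes and replicate 6 the lowest for 8 of them. Among WT tumors, replicate 5 was highest for 7 genes and replicate 4 lowest for 6. The totals over all probes moved in the same way, with the normalized sum of the Siah2 KO tumors running from 575773 in replicate 6 to 741789 in replicate 5, and their part in the pattern was not tested. Over the 36 pairs of genes, Pearson's r of the log2 deviations from the group mean across the 10 tumors ran from 0.086 (*Cd3e* with *Cd8b1*) to 0.95 (*Cd3g* with *Zap70*), with a median of 0.69 and all 36 above 0. The genes of the opposed starts printed above, *Cd3d* and *Cd3g*, reached 0.91, as did *Cd3d* and *Zap70*, which lies on chromosome 1. *Cd3e*, of the same cluster, reached 0.76 with *Cd3d* and 0.75 with *Cd3g*. *Cd4* and *Lck* reached 0.90 although their group differences had opposite signs. These correlations describe 10 tumors whose genes share one scaling factor per tumor.

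**Figure D4:**
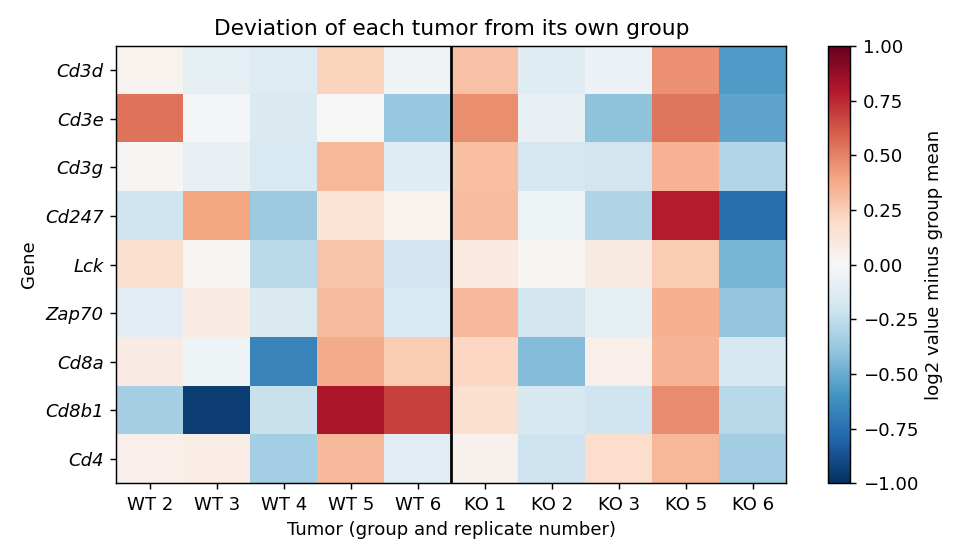
Log2 value of each gene in each tumor minus the mean of its own group (red above, blue below), with WT tumors left of the black line and Siah2 KO tumors right of it. Siah2 KO replicate 5 is above its group mean and replicate 6 below it for all 9 genes, with *Cd8b1* varying most among WT tumors.

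Outside the 9 genes, the probes whose deviations were most like the mean deviation of the 4 signaling chains were *Tlr8* (r = 0.94), *Tigit* (0.93), *Cd38* (0.91), *Havcr2* (0.86) and *Map4k2* (0.85), among 593 probes with a mean of at least 20 and over the same 10 tumors. The median r of those probes was 0.29. *Tigit* and *Havcr2* encode inhibitory receptors found on T cells and NK cells, the latter on myeloid cells too, and *Tlr8* encodes a receptor of the innate immune system for RNA.

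Other genes of the pathway were followed in lists drawn up by function. Of 16 genes that act close to the receptor, 6 rose and 0 fell, with a median log2 fold change of 0.35, against 0.24 and a background of 31.3% over all probes. *Ptprc*, which encodes CD45, the phosphatase that keeps LCK ready, rose by 0.78 (limma, adjusted p = 0.0020). *Fcer1g* (0.84, adjusted p = 0.00074), the signaling chain of Fc receptors, and *Syk* (0.52, adjusted p = 0.0053), the relative of ZAP-70, rose too, and both are used largely by myeloid and NK cells. Relative to the leukocyte genes 0 of the 16 were called higher and 7 lower, the latter a share close to the 44.2% of all probes called lower on that scale. The calls of this list depended on the scaling: 3 were made where the median probe was made equal and 0 with the positive controls alone.

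On the T cell surface, 8 of 19 listed genes rose and 0 fell, beside 31.3% and 9.74% of all probes, with a median log2 fold change of 0.50. With the positive controls alone 3 were called. *Il7r*, the receptor chain for interleukin-7, rose by 1.97 (limma, adjusted p = 0.0012). *Pdcd1*, which encodes PD-1, had 63.0 ± 7.90 normalized counts in WT and 170 ± 51.5 in Siah2 KO tumors (SD, n = 5 each), a rise of 1.37 (adjusted p = 0.00068). *Tigit* rose by 0.97 (adjusted p = 0.0028). Relative to the leukocyte genes 2 of the 19 were called higher and 5 lower, beside 7.27% and 44.2% of all probes.

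Among 21 genes that T cells induce after the receptor is engaged, 10 rose and 2 fell, with a median of 0.40, beside 31.3% and 9.74% of all probes. With the positive controls alone 7 were called. *Ccl4* (2.20), *Ccl3* (2.02), *Tnf* (1.52) and *Fos* (1.78, limma, adjusted p = 0.00057) had the smallest adjusted p of the list. All 4 are also made by activated macrophages and other cells. The 2 that fell, named after their values were seen, were *Egr3*, a transcription factor, with 52.4 ± 11.9 normalized counts in WT and 24.3 ± 10.4 in Siah2 KO tumors (SD, n = 5 each; log2 fold change -1.16, adjusted p = 0.011), and *Xcl1*, a chemokine of T and NK cells (-0.83, adjusted p = 0.0014). For both, all 5 Siah2 KO tumors lay below every WT tumor. The share of the list that fell was close to that of all probes. Relative to the leukocyte genes 6 of the 21 were called higher and 5 lower, beside 7.27% and 44.2% of all probes.

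The partners of the coreceptors were measured as well, beside a background of 31.3% of all probes that passed as higher. The MHC class I genes *H2-D1* (0.58, limma, adjusted p = 0.0048) and *H2-K1* (0.60, adjusted p = 0.0053), whose products CD8 binds, both rose. Of 3 MHC class II genes, whose products CD4 binds, *H2-Ab1* rose by 0.59 (adjusted p = 0.020). *H2-Aa* (0.44, adjusted p = 0.073) and *H2-Eb1* (0.25, adjusted p = 0.31) did not pass. The class II call was lost where the median probe was made equal, with the positive controls alone and with the replicate number as a block. Of the class I calls, 1 was left where the median probe was made equal and 0 with the positive controls alone.

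Markers of the cells that could carry these transcripts were counted beside them. Over all probes 31.3% passed as higher and 9.74% as lower. Of 6 T cell markers, 3 rose, and those were the CD3 genes themselves. The other T cell markers, *Cd2* (0.72, limma, adjusted p = 0.21), *Cd5* (-0.02, adjusted p = 0.96) and *Cd6* (-0.23, adjusted p = 0.24), did not pass. Of 8 NK cell markers 5 rose, *Ncr1* by 0.53 (adjusted p = 0.013), and their summed normalized counts ran from 890 to 1168 in WT and from 1497 to 2230 in Siah2 KO tumors, while *Klra1* was at the floor in 10 tumors and *Klra3* in 9. The part of NK cells in the values of *Cd247*, *Lck* and *Zap70* was not tested. The markers of CD8-bearing dendritic cells summed to 141 to 206 in WT and 144.5 to 213 in Siah2 KO tumors, with *Xcr1*, their defining marker, at 0.07 (adjusted p = 0.83), *Itgax* higher and *Itgae* lower among 4. The part of these cells in the values of *Cd8a* was not tested.

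Of 5 general markers of myeloid cells, some of which can carry CD4, 3 rose. Over all probes 31.3% passed as higher and 9.74% as lower. *Itgam* rose by 0.76 (limma, adjusted p = 0.0039), whereas *Csf1r* did not pass (-0.02, adjusted p = 0.95). The 5 markers summed to 3838 to 4759 in WT and 4934 to 8023 in Siah2 KO tumors. The part of myeloid cells in the values of *Cd4* was not tested. Of 6 markers of regulatory T cells, which are CD4 cells, 1 fell and none rose: *Foxp3*, at -0.92 (adjusted p = 0.018). Their sums of 506 to 818 and 529 to 862 overlapped, and the part of these cells in the values of *Cd4* was not tested. B cell markers were low, summing to 17.6 to 26.5 in WT and 21.4 to 54.5 in Siah2 KO tumors with 1 of 6 higher. Of 4 neutrophil markers 1 rose, and of 6 endothelial markers 1 rose and 2 fell. Of 5 fibroblast markers 4 fell, with sums of 17125 to 22093 in WT and 10976 to 12818 in Siah2 KO tumors. Of 3 markers of melanoma and neural crest 2 fell, with sums of 438 to 594 and 224 to 405, and *S100b* was at the floor in 3 tumors. The called markers of fibroblasts and of melanoma and neural crest were thus lower in the Siah2 KO tumors, where most receptor genes were higher. Which cells carried these markers was not measured, and their part in the fold changes was not tested.

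The depth of the assay before scaling was similar in both groups. Before the scaling factor, the gene counts of a tumor summed to 443454 to 578705 in WT tumors (median 559069) and 382860 to 581637 in Siah2 KO tumors (median 558815). The scaling factor tended to be larger in Siah2 KO tumors. It ran from 0.918 to 1.32 in WT (median 0.964) and from 1.03 to 1.60 in Siah2 KO tumors (median 1.26), where it was highest in replicate 2. After scaling, the sums were 512955 to 585366 in WT and 575773 to 741789 in Siah2 KO tumors. Before it, *Cd8a* of Siah2 KO replicate 2 (55.6) lay within the WT values (37.4 to 67.9), while the other Siah2 KO tumors lay above them. Between 39 and 84 probes per WT tumor and between 58 and 73 per Siah2 KO tumor were at the floor, and none of the 9 receptor genes was among them.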

How the data were processed

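RNA of each tumor (100 ng) was hybridized to the nCounter PanCancer Immune Profiling panel, and the deposited signal is a normalized count per probe: the authors scaled each tumor to the geometric mean of 20 reference genes in nSolver. From the values, a background constant had been taken off and results under 1 had been set to 1, while control rows carry no scaling factor. The factor was recovered from the equal steps between low values and was used only for depth and for scaling to the positive controls. Groups followed the sample titles. Log2(value + 1) of all 770 gene probes was fitted with limma 3.58.1 in R 4.3.3, 5 against 5 tumors with no covariate, and adjusted by Benjamini-Hochberg with a threshold of 0.05. The methods' equal variance test was an alternative. Ratios were tested by 2-sided exact permutation. The fit was tested on simulated data. Genes other than the 9 were named by adjusted p within a list or by correlation, except where stated. The genes, lists and tests were chosen with earlier results of these data known. Some genes that these rules would name are not reported here.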

Additional observations from a re-analysis of the deposited data

Results flagged for a closer look

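The *Cd8b1* to *Cd4* ratio of Siah2 KO replicate 3 stood apart from its group. It was 0.469, whereas the other 4 Siah2 KO tumors had 0.628 to 0.679, so that its gap to the nearest of them made up 0.789 of the range of the group, above Dixon's critical value of 0.71 for 5 tumors. It was still above every WT tumor. Chance flags about 1 in 20 groups, and 36 groups of 5 values were examined.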

How the results depend on the processing

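Of the 9 genes, 7 passed in the analysis as reported. The number was 1 with scaling to the positive controls and 4 when only the 8 tumors with a shared number were used. With the replicate number as a block it was 6, the call of *Cd3e* being lost (0.64, limma, adjusted p = 0.078). The share of all probes that passed was not counted under these alternatives. Whether the lower counts were particular to these genes was therefore not tested. Same-numbered tumors deviated together with r of 0.035, 0.050, 0.17 and 0.35, and 8 of 8 correlated best with their own number, a hint from the data only. With that block the *Cd8a* to *Cd4* difference was 1.31 (exact p = 0.125, the smallest 4 pairs allow), and in the other alternatives that kept this ratio it ran from 1.26 to 1.53 and passed. Of the 8 other ratios 4 passed, 2 with 10 added to each value, 0 with the block and 2 to 5 with 1 tumor left out. Calls in the pathway lists numbered 29, and 10 with scaling to the positive controls. Relative to the leukocyte genes, values near 0 changed sign: *Cd3d* was -0.063 and *Lck* -0.086 with *Ptprc* alone as reference, and -0.033 and -0.043 with the block. With 1 tumor left out, *Cd3d* ran from -0.048 to 0.11, *Lck* from -0.086 to 0.088, *Cd247* from -0.15 to 0.081 and *Cd3e* from -0.028 to 0.29, and per CD3 *Cd2* ran from -0.32 to 0.17 and *Cd28* from -0.20 to 0.086. The cause of these changes was not tested. Values of *Cd8b1* in WT tumors near the negative controls limit its fold change and each ratio with it, and 5 tumors a group limit every value.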

Other observations

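Surface molecules that T cells carry beside the receptor did not all keep the same ratio to the CD3 genes. The ratios of 6 of them to the geometric mean of *Cd3d*, *Cd3e* and *Cd3g* of the same tumor were added after the values were seen. *Cd6*, which encodes a receptor that tunes T cell signals, was at 0.328 ± 0.0365 in WT and 0.159 ± 0.0219 in Siah2 KO tumors (SD, n = 5 each), with all 5 Siah2 KO tumors below every WT tumor (log2 difference -1.05, exact permutation p = 0.0079, adjusted 0.048 over the 6). *Cd5*, a related inhibitory receptor, was at 0.386 ± 0.103 and 0.213 ± 0.0428 (log2 difference -0.84, exact permutation p = 0.016, adjusted 0.048). *Cd27*, a costimulatory receptor, differed by -0.33 (exact permutation p = 0.024, adjusted 0.048). *Cd2* (-0.06), *Cd28* (-0.06) and *Thy1* (-0.11) did not pass, with adjusted p of 0.90 each in the exact permutation tests. The values of *Cd28* were low, with means of 8.36 normalized counts in WT and 15.3 in Siah2 KO tumors. Those of *Cd2* were 16.6 and 28.7. No other handling of low values was tried for these ratios. With any 1 tumor left out the call of *Cd6* held in 10 of 10 cases, while that of *Cd5* held in 4 and that of *Cd27* in 2. The adjusted p of these ratios depends on the choice of these 6 genes, and the replicate number was not applied to them as a block. The CD3 genes themselves rose, so a gene that did not rise is lower in such a ratio. Without the ratio, *Cd5* (-0.02, limma, adjusted p = 0.96), *Cd6* (-0.23, adjusted p = 0.24) and *Cd27* (0.48, adjusted p = 0.063) did not pass. Nor did *Cd2* (0.72, limma, adjusted p = 0.21) and *Cd28* (0.70, adjusted p = 0.085). The share of all probes lower per CD3 was not counted.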
